A study of Daphnia magna with 12 samples.

Results

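The probes described here were those whose signal was lower in water fleas (Daphnia magna) exposed to either form of copper than in unexposed animals. A probe was counted when its CuO mean and its CuCl2 mean each lay at least 1 below its blank mean on the log2 scale, a 2-fold difference. Of 4247 probes, 82 (1.93%) met this bound. The probes were thus chosen by measured values, the CuO and CuCl2 differences from blank, and those are given below as a description, without a test.

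The study measured RNA from whole bodies of Daphnia magna with two-colour Agilent microarrays. The 3 groups were animals given copper oxide (CuO) nanoparticles, animals given the dissolved salt CuCl2.2H2O, and animals given no added copper (blank), all held for 96 hours in ISO test medium with algae as food, with the medium and the exposure renewed after 48 hours. The labels give 96 hours as the age when sampled, and both copper forms were dosed at the EC10 for immobilisation, so their copper masses need not be equal. Each group had 4 replicate pools of 40 daphnids, and each pool was hybridised against one copper reference mixed from equal aliquots of the 3 groups, with 2 pools per group in the dye cy3 and 2 in cy5. The sources used here do not give strain, sex or copper concentrations. RNA of whole animals was pooled, so fewer cells of a kind and less RNA per cell cannot be told apart.

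Copper is an essential trace metal, used by enzymes of respiration and of defence against oxygen radicals, and it is toxic to daphnids in excess. Excess copper ions disturb sodium uptake across the gills and promote oxidative damage, and animals bind the metal with small cysteine-rich proteins, the metallothioneins. CuO nanoparticles release copper ions in water and can also be swallowed as particles by filter feeders such as Daphnia. A dissolved salt delivers the ions directly.

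A value is the log2 ratio of the exposed pool to the reference, so 0 means a level equal to the mixture. Neither the direction nor the log base is stated with the table: signs below rest on reading it as sample over reference, and sizes on base 2. In an equal mixture the linear ratios of the 3 groups average 1, a log2 of 0. For the 82 probes the log2 of this average had a median of -0.02 (range -0.42 to 0.26) as deposited and of 0.33 with every sign turned, and it lay nearer to 0 as deposited for 70 of them. Over all probes it was nearer to 0 as deposited for 2451 of 4247, with medians of -0.0005 as deposited and 0.05 turned. An equal mixture also limits a group to 3 times the reference, a log2 of 1.58, and the highest blank mean among the 82 probes was 1.30. Of the 328 single blank values of these probes, 17 lay above that limit. The files and the RefSeq gene table used here (assembly ASM2063170v1.1) pair 0 of the probe IDs with a gene, and no 2 IDs share a number, so probes are named by ID and no function is given.

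The 82 probes stood above the reference in blank animals and below it in both copper groups. The blank mean had a median over probes of 0.73 (range 0.29 to 1.30), the CuO mean one of -0.51 (range -1.68 to -0.10) and the CuCl2 mean one of -0.70 (range -1.32 to -0.27). In linear terms the median probe was at 1.66 times the reference in blank animals, 0.704 times in CuO animals and 0.614 times in CuCl2 animals. The median difference from blank was -1.14 for CuO and -1.40 for CuCl2, against 0.03 and -0.006 over all probes.

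Array by array, the median log2 ratio of the 82 probes in blank replicates 1 to 4 was 0.82, 0.81, 0.30 and 0.81. In CuO replicates 1 to 4 it was -0.23, -0.27, -0.97 and -0.36. In CuCl2 replicates 1 to 4 it was -0.55, -0.19, -0.94 and -1.17. Every copper array thus lay below every blank array in this median, although blank replicate 3 stood apart from the other blanks. CuO replicate 3 and CuCl2 replicates 3 and 4 were the lowest arrays, and all 3 carried cy5. Below 0 lay all 82 probes in CuO replicate 3, 57 in CuO replicate 2 and in CuCl2 replicate 2, and 1 in blank replicate 2. The quartiles over the 82 probes were 0.12 and 0.47 in blank replicate 3, -1.35 and -0.75 in CuO replicate 3, and -1.47 and -0.77 in CuCl2 replicate 4. In CuCl2 replicate 2, the mildest copper array, they were -0.41 and 0.07.

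The highest of a probe's 12 values fell in blank replicate 1 for 31 probes, in blank replicate 4 for 27, in blank replicate 2 for 23 and in blank replicate 3 for 1. Its lowest value fell in CuCl2 replicate 4 for 43 probes and in CuO replicate 3 for 20. CuCl2 replicate 4 was also the array of widest spread over the whole table, with an SD over all probes of 0.711 against 0.357 to 0.654 on the other arrays. The part of this array's spread in the low values was not tested. Without this array 71 of the 82 probes met the bound, a count that the choice on all 12 arrays partly fixes.

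The size of the difference was modest for most of the probes. CuO minus blank ran from -2.44 to -1.01 and lay above -1.2 for 50 of the 82. CuCl2 minus blank ran from -2.54 to -1.01 and lay above -1.2 for 17. A 3-fold difference in both forms was reached by 9 probes and a 4-fold difference in both by 4, which were DM10614P3, DM06597P2, DM05207P1 and DM07144P1.

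DM10614P3 had the lowest mean of both differences and the highest blank mean. Its blank values in replicates 1 to 4 were 1.71, 4.00, -0.03 and -0.47, its CuO values -1.06, -0.56, -1.71 and -1.01, and its CuCl2 values -1.01, -0.51, -1.28 and -2.16. Both copper groups lay below all blanks, but the blank SD was 2.03 and the blank mean of 1.30 rested mostly on replicate 2. On the cy3 arrays, which hold that replicate, its differences were -3.66 for CuO and -3.62 for CuCl2. On the cy5 arrays they were -1.11 and -1.47.

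DM06597P2 was the second lowest. In blank replicates 1 to 4 it had 1.75, 0.58, 0.30 and 1.22, in CuO replicates -1.76, 0.06, -2.31 and -1.63, and in CuCl2 replicates -0.79, -0.43, -1.91 and -2.14. No copper value reached the lowest blank, although CuO replicate 2 came close to it. The differences were -2.37 (5.18-fold) for CuO and -2.28 (4.86-fold) for CuCl2.

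DM05207P1 had the second highest blank mean, 1.20 ± 0.61 (mean ± SD, n = 4). Its blank values were 1.02, 2.08, 0.70 and 0.98, its CuO values -0.98, -0.61, -2.05 and -1.12, and its CuCl2 values -0.72, -0.36, -1.91 and -1.15. All blank values lay above all copper values, the copper forms overlapped, and the differences were close in both dye orientations: -2.35 and -2.43 for CuO and -2.09 and -2.37 for CuCl2, on cy3 and cy5 arrays.

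DM07144P1 showed the largest CuO difference, -2.44 (5.42-fold), beside -2.07 (4.18-fold) for CuCl2. Its blank values were 0.58, 1.24, 1.20 and 1.60, its CuO values -1.45, -1.06, -1.89 and -0.72, and its CuCl2 values -0.95, -0.95, -1.15 and -0.59. Unlike most of the 82 it was a little higher on cy5 than on cy3 arrays, by a dye coefficient of -0.17 (cy3 minus cy5).

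At the bound itself, the members just inside were DM07137P3, with -1.01 for CuO and -1.2 for CuCl2, and DM08562P1, with -1.46 and -1.01. Just outside were DM06550P3, with -1.24 and -0.9996, and DM06347P3, with -0.9991 and -2.01. A bound of -0.8 would have taken 190 probes and one of -1.2 would have taken 28.

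Of the 93 probes that CuO lowered at least 2-fold, the 82 made up 88.2%, and of the 218 that CuCl2 lowered at least 2-fold they made up 37.6%. Both lists were measured against the same blanks. In the limma fit over all probes (Benjamini-Hochberg adjusted p under 0.05, two-sided), 73 of the 82 were called lower for CuO, where 12.7% of all probes were, and 80 for CuCl2, where 19.5% were. All 73 were called for both forms, against 11.5% of all probes. Since the bound used these same contrasts, nothing is read from these counts. The 2 probes called for neither form, DM08562P1 and DM04068P2, had the widest spread.

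Separation of the individual values was less complete than that of the means. For 47 of the 82 probes all CuO values lay below all blank values (9.61% of all probes did so), and for 60 all CuCl2 values did (11.0% of all probes). All 8 copper values lay below all blanks for 44 probes, against 6.62% of all probes. Of the 38 probes that overlapped, 21 had a called dye term, against 33 of the 82 and 32.7% of all probes. The part of the dye term in the overlap was not tested. After each dye orientation was centred on its own mean, 64 of the 82 were fully separated, against 12% of all probes. The bound used these same values, which favours separation, so nothing is read from the gap to all probes.

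The spread between replicates was wider for these probes than for the table as a whole. The residual SD, the scatter left after group and dye are fitted, had a median of 0.432 over the 82 probes (range 0.179 to 1.24) and 0.234 over all 4247. It was 0.360 over the 225 probes raised at least 2-fold by both forms. Over the 136 probes lowered at least 2-fold by CuCl2 alone it was 0.415, and over the 11 lowered by CuO alone 0.577. Each set cut at 2-fold thus had a wider spread than all probes, so this was not particular to the 82. The bound set no limit on spread, and its part in these medians was not tested. The medians are descriptions, with no test of the difference.

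DM02239P3 had the narrowest spread of the 82, with a residual SD of 0.179. Its blank values were 1.22, 0.86, 0.10 and 0.50, its CuO values 0.04, -0.12, -0.82 and -0.73, and its CuCl2 values -0.05, 0.13, -0.68 and -1.03. The cy5 arrays of each group lay well below its cy3 arrays, so CuCl2 replicate 2 at 0.13 was above blank replicate 3 at 0.10, while within each orientation both blanks lay above all copper values and the copper forms interleaved. DM02111P2 was nearly as tight (residual SD 0.199), with blank values from 0.36 to 1.12, CuO values from -0.66 to -0.03 and CuCl2 values from -0.94 to -0.24.

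DM08562P1 and DM04068P2 were at the other end, each because of single arrays. DM08562P1 had -4.31 in CuO replicate 3 against 0.50, -0.14 and 0.16 in the other CuO replicates, and a residual SD of 1.24. Its blank values were 0.30, 1.53, -0.001 and 0.23, so 2 of its CuO values lay within the range of the blanks. DM04068P2 had 2.93 in blank replicate 2 against -0.20, 0.42 and 0.22 in the other blanks, and -1.92 in CuO replicate 3 against 0.07, 0.34 and 0.25 (residual SD 1.03). The group means of both probes met the bound, while part of their copper values lay within the range of the blanks.

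Across the 12 arrays, with dye orientation centred, the profile of a probe correlated with the mean profile of the other 81 at a median r of 0.90 (range 0.58 to 0.98). The bound itself imposes a common drop from blank to copper, so this likeness is in large part given by the choice of probes. DM10960P3 and DM02375P3 were nearest to the common profile, both with r of 0.98. DM10960P3 had blank values of 0.87, 1.09, 0.28 and 0.85, CuO values of 0.02, -0.28, -0.83 and -0.17, and CuCl2 values of -0.65, 0.04, -0.89 and -1.04. DM02375P3 had 0.49, 0.64, 0.47 and 1.11 in blanks, -0.25, -0.53, -0.71 and -0.11 in CuO, and -0.46, -0.16, -0.40 and -0.84 in CuCl2. DM04068P2 (r = 0.58) and DM08562P1 (r = 0.60) were farthest from it.

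The bound used group means, and the residuals left once group and dye means are removed did not enter it directly. Both come from the same 12 arrays, so a shift of many probes on a single array enters group means and residuals alike. The likeness below is thus not separate from the choice of probes. In these residuals, pairs among the 82 probes correlated at a median r of 0.30 across the 12 arrays (quartiles -0.01 and 0.58), against -0.001 for pairs of all probes (quartiles -0.30 and 0.30). The probes raised by both forms had a median of 0.52 and those lowered by CuCl2 alone one of 0.48. The pairs share arrays and reference, and no p-value is given.

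The joint movement showed on particular arrays, and the same limit holds there. In blank replicate 4, 75 of the 82 probes (91.5%) lay above their fitted value, against 49.6% of all probes. In CuCl2 replicate 2 it was 71 (86.6%, against 52.3%), and in CuO replicate 4 it was 63 (76.8%, against 50.7%). Few lay above it in blank replicate 3, with 15 (18.3%, against 51.7%), and in CuO replicate 3, with 20 (24.4%, against 49.5%). The residuals of a probe balance out over the arrays of each group and of each dye. A high array is thus matched by lower ones, here and in the mean residuals below, and these are not separate movements.

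Mean residuals of the 82 probes were 0.34 in blank replicate 4, 0.31 in CuCl2 replicate 2, 0.30 in CuO replicate 4 and -0.29 in CuO replicate 3. The 225 raised probes had -0.12, -0.53, -0.14 and 0.01 on the same arrays. In CuCl2 replicate 4 the lowered probes had -0.19 and the raised probes 0.46. Replicates 2 and 4 of CuCl2 thus stood on opposite sides for both sets of probes: the lowered probes were less low and the raised probes less high in replicate 2. In CuO replicate 1 the raised probes stood at 0.31 and the lowered ones at -0.01, so the 2 sets did not move against each other on every array.

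In a principal component analysis of the dye-centred 82 probes, the first component held 76.3% of their variance and the second 8.62%. The choice of probes imposes a first component that parts blank from copper, so its share and this split are no result. On it, the blanks scored 0.34, 0.37, 0.32 and 0.53 in replicates 1 to 4 and the copper arrays between -0.30 and -0.03. CuO replicate 4 (-0.03) and CuCl2 replicate 2 (-0.10) were the copper arrays nearest to the blanks. The second component set CuO replicates 1 and 4 (0.51 and 0.44) and blank replicate 2 (0.32) apart from CuO replicate 2 (-0.43) and blank replicate 1 (-0.40), so it followed no exposure.

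The bound set no limit on the difference between the nanoparticle and the salt. It did cut both means that make up this difference, so the choice of probes shapes it too. No probe among the 82 passed the test between CuO and CuCl2 (0 called by limma at an adjusted p under 0.05, and 0% of all probes), with a smallest adjusted p of 0.839. At an unadjusted limma p under 0.05 there were 5 of the 82 (6.10%), against 4.66% of all probes, which is close to the background. In all 5 the CuO mean was the higher, as it was in 67 of the 82. These were DM01498P1, DM06974P1, DM01561P3, DM02111P2 and DM12302P1, of which DM01561P3 and DM12302P1 are named because the count is small and were picked after their values were seen.

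DM01498P1 had the smallest p of the 82. Its blank values were 1.38, 1.19, 0.19 and 0.41, its CuO values 0.08, 0.46, -0.77 and -1.29, and its CuCl2 values -0.20, 0.07, -1.99 and -2.26. Each CuCl2 value lay below both CuO values of its own dye orientation. The CuO mean was 0.71 higher than the CuCl2 mean (SE 0.22, 95% interval 0.23 to 1.20, limma adjusted p = 0.839), by 0.34 with cy3 and 1.09 with cy5. DM06974P1 followed with 0.51 (95% interval 0.08 to 0.94).

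In the other direction no probe reached an unadjusted p under 0.05. DM07144P1 was lower in CuO than in CuCl2 by a log2 difference of -0.37 (95% interval -0.95 to 0.20). DM10419P2 had a difference of -0.76 (95% interval -1.95 to 0.43). Its CuO values were -2.27, 0.10, -1.92 and -2.66 and its CuCl2 values -0.53, -0.59, -1.89 and -0.70, so CuO replicate 2 was above all CuCl2 values while the other CuO replicates were below them all. Its blank values were 0.73, -0.02, 0.11 and 1.44.

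These data bound the difference between the forms only loosely. For 58 of the 82 probes the 95% interval stayed inside a 2-fold difference in both directions, against 88.2% of all probes, and inside a 1.5-fold difference for 8, against 63.2%. A miss of the threshold therefore does not show that the forms acted alike on these probes. DM02239P3 had the narrowest interval, -0.30 to 0.30, around a difference near 0.

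Most of the 82 differences had one sign. The CuO mean was the higher in 67 of the 82 probes, where 54.0% of all probes had it higher, and the median CuO minus CuCl2 difference was 0.17 (quartiles 0.03 and 0.32) against 0.02 over all probes. Over the 225 raised probes the CuO mean was the higher in 12.9% and the median difference was -0.25, so a mean farther from blank in CuCl2 than in CuO was not particular to the lowered probes. The median over the 82 depended on single arrays: it was 0.04 without CuO replicate 4, 0.10 without CuCl2 replicate 4, 0.11 without CuCl2 replicate 1, and 0.30 without CuO replicate 3 or without CuCl2 replicate 2. On the cy3 arrays it was 0.08 and on the cy5 arrays 0.31, and once every array had the same median absolute deviation it was 0.08. It stayed above 0 in each of these. The bound cut both means of this difference, and the raised probes were cut at 2-fold in the same way. The choice of probes thus shapes these counts and medians, and nothing is read from their gap to all probes.

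The level of these probes differed between arrays with the exposed pool in cy3 and those with it in cy5. In every group cy3 was carried by replicates 1 and 2 and cy5 by replicates 3 and 4, so the dye and a difference between these sets of replicates cannot be told apart, here and in every value given by dye. Each group held 2 arrays of each dye, so this term does not enter the group means. A dye term was called by limma for 33 of the 82 probes, against 32.7% of all probes, which is close to the background. The direction was uneven: 31 were higher on cy3 arrays and 2 on cy5 arrays, where 18.9% and 13.8% of all probes were. The median coefficient (cy3 minus cy5) was 0.50 over the 82 probes and 0.04 over all, and it was above 0 for 67 of the 82. The 225 raised probes had 10 called higher on cy3 and 52 on cy5, with a median of -0.22, and the 136 probes lowered by CuCl2 alone had 48 and 1, with a median of 0.52. What sets this direction was not tested.

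The largest dye coefficients were those of DM10614P3 (1.54, SE 0.48, limma adjusted p = 0.0287) and DM05426P3 (1.47, SE 0.21, limma adjusted p = 0.000522). DM05426P3 had blank values of 1.61, 0.82, -0.06 and 0.10, CuO values of -0.17, 0.56, -1.52 and -1.04, and CuCl2 values of -0.54, 0.18, -1.65 and -2.20. The cy3 arrays of CuO replicate 2 and CuCl2 replicate 2 thus exceeded the cy5 blanks, although each copper value lay below both blanks of its own dye. The 2 probes called higher on cy5 were DM02020P4 (-0.57) and DM12065P2 (-0.79), named because of their small number.

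The copper differences were present within each dye orientation. All 82 probes were below blank in both forms, on cy3 as on cy5 arrays. Over all probes 48.1% were below blank for CuO and 48.9% for CuCl2 on cy3, and 48.6% and 50.8% on cy5. The choice of the 82 on the mean of both orientations largely fixes their sign. On cy3 the median difference was -1.11 for CuO and -1.22 for CuCl2, and on cy5 it was -1.22 and -1.54. The bound itself was met by 54 of the 82 on cy3 arrays and by 70 on cy5 arrays. These counts and medians still carry the choice made on all arrays.

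The same bound was also applied to the arrays of a single dye, and the probes it took were read on the other dye. The other dye uses separate pools and arrays, though the same reference, and within a dye both forms share the same blanks. The bound was set with earlier results of these data known, so the reading is not wholly free of the choice. On the cy3 arrays the bound took 70 probes (1.65% of all probes), of which 54 were among the 82. On the cy5 arrays these 70 had a median difference of -1.11 for CuO and -1.47 for CuCl2, against 0.02 and -0.01 over all probes. They were below blank for CuO in 65 of 70 (48.6% of all probes) and for CuCl2 in 66 (50.8% of all probes), and 42 met the bound again. By limma on the cy5 arrays alone, 15 of the 70 were called lower for CuO (1.04% of all probes) and 44 for CuCl2 (12.3% of all probes).

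In the other direction, the cy5 arrays took 114 probes (2.68% of all probes), 70 of them among the 82. On the cy3 arrays their median difference was -0.97 for CuO and -1.03 for CuCl2, smaller than the -1.16 and -1.58 on the arrays that chose them. Below blank were 110 of 114 for CuO (48.1% of all probes) and 112 for CuCl2 (48.9% of all probes), and 42 met the bound again. With 2 arrays per group, limma on the cy3 arrays alone called 3 of the 114 for CuO and 2 for CuCl2, against 0.0706% of all probes in either comparison.

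The number of probes meeting the bound depended on the scaling and on single arrays. All 82 probes stayed below blank in both forms after median centring, after quantile normalization and after scaling to a common median absolute deviation, which the choice of probes at -1 or lower largely fixes. The bound then took 97, 106 and 57 probes, of which 82, 78 and 56 were among the 82. Without CuO replicate 3 it took 46 probes, 45 of them among the 82, and without blank replicate 3 it took 131, with all 82 among them. Leaving out 1 array unbalances the dyes in plain means, so these counts include dye effects.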

How the data were processed

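The authors deposited 1 table of log2 ratios with 4262 rows and 12 array columns, read as log2: the submitters' processing notes name limma, which uses that scale. How they corrected background, normalized and chose rows: not given in the sources used here. All 12 columns belong to samples of the series. The 15 control rows were set aside; all 15 had opposite mean signs on cy3 and cy5 arrays, and the columns were used as deposited, without turning any. RNA (100 ng per pool) was labelled in 2 colours, per the labels' protocols. Array medians lay between -0.06 and 0.04, and 0 values were missing. Precision is limited by the number of arrays. The labels describe separate replicate exposures.

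Group and dye were fitted with limma 3.58.1 in R 4.3.3 over the 12 arrays, leaving 8 residual degrees of freedom, with Benjamini-Hochberg adjustment over 4247 probes at 0.05, after a check on simulated data. With 2 arrays of each dye per group, its group differences equal those of plain means. Probes were named by extremes of the differences, spread, dye coefficient, profile and blank mean. The probes, the bound and these rules were chosen with earlier results of these data known. Replicate numbers were not treated as pairs. Residual correlations of same-numbered arrays ran from -0.36 to 0.32. The dye term, which follows the replicate number, was already removed from them, so they cannot exclude a pairing. Zinc exposures and signal intensities were not used here.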

Additional observations from a re-analysis of the deposited data

Results flagged for a closer look

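A single array far from the other 3 of its group was looked for in the median of the 82 probes and in 17 named probes. It was found in 6 of 54 cases. Chance gives about 1 in 20 for sets not picked by their values. That rate does not apply here, since the probes were named for extremes, DM08562P1 and DM04068P2 for wide spread, and the values were not centred by dye. The median of the 82 probes was 0.30 in blank replicate 3, against 0.81 to 0.82 in the other blanks. DM07137P3 had -0.19 in CuO replicate 2, against -0.81 to -0.76 in the other CuO arrays, and -1.50 in CuCl2 replicate 4, against -0.65 to -0.51 in the others of that group. DM10419P2 had -1.89 in CuCl2 replicate 3, against -0.70 to -0.53. In CuO replicate 3, DM08562P1 had -4.31, against -0.14 to 0.50, and DM04068P2 had -1.92, against 0.07 to 0.34.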

How the results depend on the processing

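The number of probes meeting the bound was 190 at -0.8, 28 at -1.2, and 46 to 131 with each array left out in turn; it was within 1.5 times of 82 under the other alternatives. On the cy3 arrays alone, called falls among the 82 numbered 3 for CuO and 2 for CuCl2, against 0.0706% of all probes in either comparison. On the cy5 arrays alone they numbered 17 for CuO, against 1.04% of all probes. Both used 2 arrays per group. The counts of calls below have no share over all probes beside them and show only how the counts moved. With 1 array left out, calls ran from 59 to 75 for CuO, from 71 to 80 for CuCl2 and from 23 to 36 for the dye term. Without a dye term CuO had 51 calls, and after quantile normalization the dye term had 22. A fit with the replicate number as a block gave 72 calls for CuO, 79 for CuCl2 and 0 between the forms, so it changed no count by over 1.5 times. CuO and CuCl2 differed for 0 of the 82 under all 21 alternatives. The median CuO minus CuCl2 difference ran from 0.04 to 0.30. Of 38 values of named probes under 20 alternatives each, 0 changed sign. Most are differences from blank of probes at or next to the bound, and the rest were picked by smallest p. That choice largely fixes the sign. Where not stated above, the cause of a shift was not tested.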
